A study of Mus musculus with 24 samples.

Results

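The 38 genes described here encode enzymes of glycolysis, the pyruvate dehydrogenase complex and the tricarboxylic acid (TCA) cycle, with 5 enzymes that link these pathways. They were taken by symbol from the 24079 genes of the deposited count table. Glycolysis was represented by 16 genes (Hk1, Gpi1, Pfkl, Pfkm, Pfkp, Aldoa, Aldoc, Tpi1, Gapdh, Pgk1, Pgam1, Eno1, Eno2, Pkm, Ldha and Ldhb). The mitochondrial pathway was represented by 17 genes, of which 5 belong to the pyruvate dehydrogenase complex (Pdha1, Pdhb, Pdhx, Dlat and Dld) and 12 to the TCA cycle (Cs, Idh2, Idh3a, Idh3b, Idh3g, Ogdh, Dlst, Suclg1, Suclg2, Sucla2, Fh1 and Mdh2). The 5 linking enzymes were Mdh1, Got1, Got2, Pcx and Idh1.

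RNA was sequenced from 2 striatal regions, dorsal striatum (DS) and nucleus accumbens (Acb), of rpS6P-/- knockin mice, in which alanine replaces every phosphorylatable serine of ribosomal protein S6, and of wild-type littermates. For each region and genotype, poly(A) RNA was taken from whole lysates and from heavy polysomal fractions, the part of a sucrose gradient that holds the mRNAs carrying the most ribosomes. This gave 8 groups of 3 libraries and 24 libraries in all, and each library was made from pooled mice. The question was whether loss of rpS6 phosphorylation alters which mRNAs are translated in each striatal region. All mice shared the mixed C57Bl/6/Sv129/ICR background, both sexes were used, and the labels name no other allele and no treatment. The knockin and wild-type mice came from crosses of heterozygous carriers, and the substitution was in the gene itself, so it was not limited to 1 cell type. The age of the mice for sequencing was not given in the sources used here. Since replicates were pools of mice, p-values measure the spread between pools.

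Glycolysis splits glucose into pyruvate in the cytosol, with a small yield of ATP. Pyruvate enters the mitochondrion, where the pyruvate dehydrogenase complex turns it into acetyl-CoA, which the TCA cycle oxidises to feed the respiratory chain. Of the linking enzymes, Mdh1, Got1 and Got2 exchange reducing equivalents between the cytosol and mitochondria (the malate-aspartate shuttle), and Pcx refills the cycle. Idh1 is a cytosolic, NADP-dependent isocitrate dehydrogenase. In the brain these pathways supply most of the ATP that neurons use, and several steps have isoforms typical of neurons, astrocytes or other tissues.

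How far a 50-base read can be placed on 1 gene differed between the members. Examples are shown from Gapdh and Tpi1, both glycolysis genes. All are coding windows within 1 exon in the sense direction, from GENCODE M21 transcripts on GRCm38. The Gapdh window (chr6:125162898-125162947, minus strand, exon 4 of 7) was chosen as the one found in most other genes. It occurred in transcripts of 84 other genes. The Tpi1 window (chr6:124812855-124812904, minus strand, exon 2 of 7) was chosen among those that occurred in 0 other genes. Both counts thus follow from the choice, and over its whole transcript Tpi1 shared 7.51% of its windows.
Gapdh: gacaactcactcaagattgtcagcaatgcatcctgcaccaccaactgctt
Tpi1: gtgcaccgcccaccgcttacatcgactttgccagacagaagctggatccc

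Over whole transcripts, 90.4% of the 50-base windows of Gapdh were also found in another gene. The shares were 72.2% for Eno1, 68.0% for Pgk1, 42.0% for Got2, 41.5% for Pgam1, 30.5% for Pkm and 30.3% for Pdhb. More than 10% of windows were shared in 9 of 16 glycolysis genes, in 2 of 17 mitochondrial genes and in 1 of 5 linking genes, while 12 of the 17 mitochondrial genes shared none. A read from a shared window cannot be placed on 1 gene by its sequence. Counts of these 12 members (Gapdh, Eno1, Pgk1, Pgam1, Pkm, Got2, Pdhb, Ldhb, Suclg2, Gpi1, Ldha and Aldoa) are therefore less certain. These shares leave out genes that overlap the member's own position. Windows also found in such an overlapping gene made up 17.1% for Pfkp and 16.5% for Pdha1, and at most 9.47% for any other member. The effect of this on their counts was not tested. Eno1, the ubiquitous enolase, was listed at 0 to 13 reads per library. The separate row Eno1b, with which it shares sequence, held 112 to 825 reads, so no statement on Eno1 is made.

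Libraries held 9280589 to 34703044 reads assigned to genes. Levels are given as CPM (a gene's reads relative to its library's scaled total) with the libraries scaled together by TMM, the trimmed mean of M values. Rps6 itself ranged from 269.8 to 488 CPM, and a count cannot show the substituted codons, so it does not check the genotype labels. The neuronal RNA Bc1 took 15.2% to 26.1% of reads in whole lysates and 0.897% to 3.85% in heavy fractions. Markers of medium spiny neurons, the principal striatal neurons, summed to 3952 to 7236 CPM per library over 9 genes, none of which was at 0 in any group. Markers of cortical excitatory neurons summed to 741 to 1013 CPM in every DS library and to 65.3 to 208.9 in every Acb library. Genotypes were compared within each region and kind of RNA by edgeR's quasi-likelihood method, and a gene was called at an adjusted p (Benjamini-Hochberg over all genes tested) under 0.05. Fold changes below are on the log2 scale with their standard errors.

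Per length of transcript, glycolytic mRNAs were the more abundant. In whole lysates of wild-type Acb the median level was 223 CPM per kilobase for 15 glycolysis genes (without Eno1), 59.4 for the 17 mitochondrial genes and 126 for the linking enzymes. The corresponding medians in the DS were 256, 64.2 and 161. Ranks are of the counts as they stand, and those of the members with shared windows, such as Gapdh and Pgk1, are less certain. Aldoa, which cleaves fructose bisphosphate, was the highest of all members at 765 ± 49.4 CPM per kilobase in the Acb and 1044 ± 25.2 in the DS (SD, n = 3). Pkm, the pyruvate kinase of muscle and brain, followed with 476 ± 17.0 and 531 ± 16.1. Enzymes of early steps were lower. Hk1, the hexokinase that traps glucose in the cell, reached 50.3 ± 4.15 and 67.1 ± 1.495, and Pfkl, a subunit of phosphofructokinase, reached 27.0 ± 3.55 and 37.1 ± 1.91. Among mitochondrial genes, Mdh2, the malate dehydrogenase that closes the cycle, was highest (177 ± 19.8 and 191 ± 8.51), and Suclg2, the GTP-forming subunit of succinyl-CoA ligase, lowest (7.52 ± 1.56 and 4.00 ± 0.352). Mdh1, the cytosolic counterpart of Mdh2, led the linking enzymes (392 ± 22.1 and 403 ± 25.0), while Pcx, which makes oxaloacetate from pyruvate and is known from astrocytes, was lowest (9.43 ± 1.18 and 8.94 ± 1.22).

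**Figure D1:**
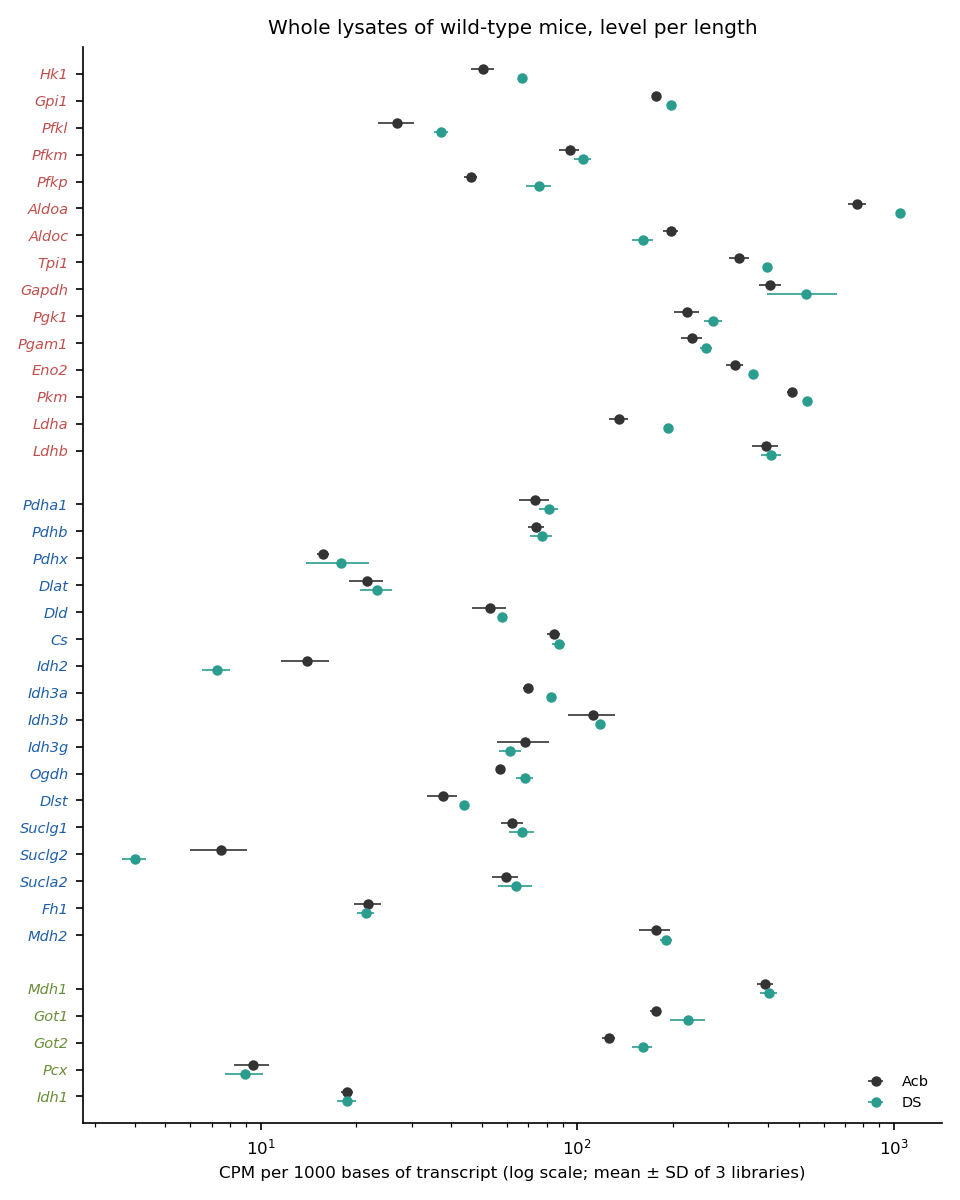
Level of 37 members in whole lysates of wild-type mice, as CPM per kilobase of transcript on a log axis (points are means of 3 libraries, bars are SD, grey is the Acb and green the DS; Eno1 is left out). Glycolysis genes (red names) reach 765 in the Acb for Aldoa, mitochondrial genes (blue names) stay at or below 177 in the Acb, and linking genes (green names) run from 9.43 for Pcx to 392 for Mdh1.

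Isoforms of 1 step differed in level and, for some, in region. Phosphofructokinase, the rate-limiting step of glycolysis, was counted for its muscle (Pfkm), liver (Pfkl) and platelet (Pfkp) forms. Pfkm in the Acb was at 126, 171 and 124 CPM in wild-type and 168, 167 and 204 in rpS6P-/- heavy fractions, and at 251, 278 and 288 in wild-type and 301, 306 and 261 in rpS6P-/- lysates. Pfkm in the DS was at 115, 159 and 141 CPM in wild-type and 164, 141 and 151 in rpS6P-/- heavy fractions, and at 315, 303 and 280.2 in wild-type and 270.1, 291 and 267 in rpS6P-/- lysates. Wild-type lysates of both regions lay above wild-type heavy fractions without overlap. Shares of isoforms, here and below, are of the summed CPM per kilobase of transcript, not of CPM. By this measure Pfkm took a mean of 56.4% of the 3 forms in wild-type Acb lysates and 48.0% in wild-type DS lysates. Pfkp in the Acb was at 102, 101 and 100.2 CPM in wild-type and 108, 109 and 119 in rpS6P-/- heavy fractions, and at 191, 200.4 and 181 in wild-type and 202, 217 and 206 in rpS6P-/- lysates. Pfkp in the DS was at 206, 205 and 195 CPM in wild-type and 149, 158 and 131 in rpS6P-/- heavy fractions, and at 331, 328 and 280.2 in wild-type and 298, 294 and 297 in rpS6P-/- lysates. Every wild-type DS library was above every wild-type Acb library of the same kind, and in DS heavy fractions the rpS6P-/- libraries lay below the wild-type ones. Pfkl in the Acb was at 48.7, 60.7 and 40.2 CPM in wild-type and 72.3, 61.0 and 97.8 in rpS6P-/- heavy fractions, and at 94.5, 91.4 and 116 in wild-type and 78.1, 110.1 and 123 in rpS6P-/- lysates. Pfkl in the DS was at 91.0, 84.4 and 68.3 CPM in wild-type and 73.8, 56.9 and 58.0 in rpS6P-/- heavy fractions, and at 130.3, 143 and 142 in wild-type and 119, 116 and 130.3 in rpS6P-/- lysates. Pfkl had the smallest share of the 3 forms, 12.01% to 21.4%. Pfkp took 28.5% ± 3.66 in heavy fractions of wild-type Acb and 41.2% ± 2.41 in those of the DS (SD, n = 3).

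Aldolase is known for Aldoa in most tissues and for Aldoc as a marker of astrocytes. Aldoa in the Acb was at 874, 1215 and 769 CPM in wild-type and 1427, 1298 and 2173 in rpS6P-/- heavy fractions, and at 1099, 1208 and 1246 in wild-type and 1105, 1183 and 1286 in rpS6P-/- lysates. Aldoa in the DS was at 1212, 1549 and 1138 CPM in wild-type and 1520.2, 1119 and 1163 in rpS6P-/- heavy fractions, and at 1602, 1586 and 1660.5 in wild-type and 1473, 1491 and 1536 in rpS6P-/- lysates. Aldoa was higher in every DS lysate than in every Acb lysate, and the 3 heavy fractions of rpS6P-/- Acb lay above those of wild-type Acb. Aldoc in the Acb was at 449, 651 and 454 CPM in wild-type and 757, 681 and 809.9 in rpS6P-/- heavy fractions, and at 533, 587 and 532 in wild-type and 630.2, 506 and 418 in rpS6P-/- lysates. Aldoc in the DS was at 321, 441 and 346 CPM in wild-type and 452, 451 and 293 in rpS6P-/- heavy fractions, and at 437, 421 and 487 in wild-type and 466, 449 and 421 in rpS6P-/- lysates. Aldoc in wild-type mice took 23.3% ± 1.26 of aldolase CPM per kilobase in Acb heavy fractions and 20.6% ± 1.19 in Acb lysates. In the DS it took 13.7% ± 0.811 and 13.3% ± 0.599 (SD, n = 3). In this share no wild-type Acb library overlapped a wild-type DS library of the same kind.

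Enolase was read from Eno2, the neuronal form, since Eno1 was near 0. Eno2 in the Acb was at 477, 644 and 501 CPM in wild-type and 764, 769 and 1187 in rpS6P-/- heavy fractions, and at 862, 835 and 939 in wild-type and 863, 986 and 939 in rpS6P-/- lysates. Eno2 in the DS was at 623, 732 and 619 CPM in wild-type and 752, 596 and 556 in rpS6P-/- heavy fractions, and at 1036, 1003 and 973 in wild-type and 1013, 1017 and 1002 in rpS6P-/- lysates. Heavy fractions lay below lysates in wild-type mice of both regions, and only in Acb heavy fractions did the genotypes not overlap.

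Lactate dehydrogenase interconverts pyruvate and lactate, with Ldhb as the heart form and Ldha as the muscle form. Ldhb in the Acb was at 461, 665 and 443 CPM in wild-type and 712, 680.3 and 951 in rpS6P-/- heavy fractions, and at 471, 502 and 568 in wild-type and 469, 533 and 553 in rpS6P-/- lysates. Ldhb in the DS was at 457, 687 and 467 CPM in wild-type and 625, 524 and 455 in rpS6P-/- heavy fractions, and at 571, 541 and 492 in wild-type and 497, 489 and 523 in rpS6P-/- lysates. Ldhb exceeded Ldha in every library, with 66.3% to 81.1% of their summed CPM per kilobase. Ldha in the Acb was at 182, 243 and 161 CPM in wild-type and 297, 221 and 400.4 in rpS6P-/- heavy fractions, and at 228, 249.9 and 259.7 in wild-type and 222, 236 and 274 in rpS6P-/- lysates. Ldha in the DS was at 264, 309 and 242 CPM in wild-type and 296, 234 and 237 in rpS6P-/- heavy fractions, and at 347, 363 and 347 in wild-type and 345, 346 and 342 in rpS6P-/- lysates. Ldha took 25.6% ± 0.815 of lactate dehydrogenase CPM per kilobase in wild-type Acb lysates and 32.2% ± 1.66 in wild-type DS lysates (SD, n = 3), without overlap.

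Isocitrate dehydrogenase 3, the NAD-dependent enzyme of the cycle, is built from subunits encoded by Idh3a, Idh3b and Idh3g. Idh3a in the Acb was at 216, 252 and 221 CPM in wild-type and 277, 314 and 354 in rpS6P-/- heavy fractions, and at 174, 182 and 184 in wild-type and 173, 210.5 and 184 in rpS6P-/- lysates. Idh3a in the DS was at 225, 272 and 209.6 CPM in wild-type and 279.8, 228 and 229 in rpS6P-/- heavy fractions, and at 219, 214 and 207 in wild-type and 211, 211 and 211 in rpS6P-/- lysates. Idh3b in the Acb was at 229.9, 258 and 242 CPM in wild-type and 278, 295 and 325 in rpS6P-/- heavy fractions, and at 148, 188 and 208 in wild-type and 186, 161 and 170.1 in rpS6P-/- lysates. In the Acb, both subunits were higher in all rpS6P-/- than in all wild-type heavy fractions. Idh3b in the DS was at 197, 294 and 214 CPM in wild-type and 266, 217 and 209.7 in rpS6P-/- heavy fractions, and at 189, 190.4 and 191 in wild-type and 157, 178 and 203 in rpS6P-/- lysates. Idh3g in the Acb was at 89.0, 111 and 97.1 CPM in wild-type and 121, 121 and 152 in rpS6P-/- heavy fractions, and at 74.9, 90.1 and 109 in wild-type and 86.3, 76.6 and 97.5 in rpS6P-/- lysates. Idh3g in the DS was at 88.1, 104 and 74.1 CPM in wild-type and 103, 90.8 and 80.1 in rpS6P-/- heavy fractions, and at 87.1, 83.7 and 74.6 in wild-type and 79.4, 84.4 and 82.7 in rpS6P-/- lysates. Their shares of the summed CPM per kilobase were 25.3% to 34.2% for Idh3a, 40.8% to 49.8% for Idh3b and 20.7% to 29.3% for Idh3g over the 24 libraries.

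Succinyl-CoA ligase pairs Suclg1 with a beta subunit that sets the nucleotide made, ATP with Sucla2 and GTP with Suclg2. Sucla2 in the Acb was at 131, 171 and 132 CPM in wild-type and 168, 209 and 249.5 in rpS6P-/- heavy fractions, and at 119, 143 and 135 in wild-type and 126, 127 and 146 in rpS6P-/- lysates. Sucla2 in the DS was at 165, 175 and 135 CPM in wild-type and 173, 149.5 and 144 in rpS6P-/- heavy fractions, and at 144, 159.8 and 125 in wild-type and 123, 128 and 156 in rpS6P-/- lysates. Sucla2 took 86.6% to 95.1% of the beta subunits' CPM per kilobase. Suclg2 in the Acb was at 22.8, 39.9 and 28.6 CPM in wild-type and 34.9, 33.0 and 32.8 in rpS6P-/- heavy fractions, and at 23.6, 31.2 and 21.2 in wild-type and 23.1, 20.0 and 15.2 in rpS6P-/- lysates. Suclg2 in the DS was at 16.5, 18.1 and 10.6 CPM in wild-type and 17.1, 17.6 and 12.8 in rpS6P-/- heavy fractions, and at 12.1, 14.0 and 14.3 in wild-type and 11.3, 14.5 and 13.5 in rpS6P-/- lysates. Suclg2 was higher in every wild-type Acb library than in every wild-type DS library of the same kind.

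In heavy polysomal fractions of the Acb, each of the 37 members tested had a higher fitted level in rpS6P-/- than in wild-type mice, but edgeR called 0 of them at an adjusted p under 0.05, as it did for 0% of all 16227 genes tested. At an unadjusted p under 0.05, 29 of 37 were higher, 10 of 15 in glycolysis, 15 of 17 in the mitochondrial pathway and 4 of 5 among the linking enzymes, where 10.2% of all genes were. DESeq2, run here as an alternative, called 18 members higher (8, 7 and 3 in the same order), against 3.46% of all genes. An older version of DESeq2 was the study's own test of differential expression. The median log2 fold change was 0.48 for glycolysis, 0.49 for the mitochondrial pathway (0.57 for the pyruvate dehydrogenase complex and 0.48 for the TCA cycle) and 0.68 for the linking enzymes, beside -0.0088 for all genes. Without the members that share over 10% of windows, the medians were 0.39 for 7 glycolysis genes and 0.52 for 15 mitochondrial genes. Both genotypes were without overlap in 20 of 37 members, all higher in rpS6P-/- (7, 10 and 3), where 11.3% of all genes were apart in that direction.

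Among glycolysis genes the smallest p-values belonged to Eno2, Aldoa and Aldoc, whose values are given above. Eno2 (chr6:124760053-124769673) had a log2 fold change of 0.79 ± 0.19 (adjusted p = 0.0983, edgeR), Aldoa (chr7:126795234-126800994) of 0.82 ± 0.20 (adjusted p = 0.0992) and Aldoc (chr11:78323073-78327781) of 0.57 ± 0.17 (adjusted p = 0.111). The wild-type and rpS6P-/- libraries did not overlap for any of these 3. Gapdh, the dehydrogenase often used as a reference gene, was at 468, 609 and 377 CPM in wild-type and 666, 605 and 987 in rpS6P-/- libraries, which overlapped (0.68 ± 0.21, adjusted p = 0.114). The smallest fitted differences in glycolysis were those of Tpi1 (0.19), Pfkp (0.19), Pgam1 (0.22), Hk1 (0.25) and Gpi1 (0.26).

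The smallest p-values of the mitochondrial pathway all fell in the pyruvate dehydrogenase complex. Pdhx (chr2:103021055-103073513), which anchors the E3 enzyme in the complex, was at 30.6, 47.8 and 35.9 CPM in wild-type and 56.0, 53.2 and 67.5 in rpS6P-/- heavy fractions. Dld (chr12:31331562-31351471), the E3 enzyme itself, was at 81.2, 118 and 77.4 and 115, 145 and 171. Pdha1 (chrX:160122219-160138430), the X-linked alpha subunit of the decarboxylating enzyme, was at 192, 205 and 204 and 260.4, 256 and 351. The genotypes were apart for Pdhx and Pdha1 and overlapped for Dld, where wild-type replicate 2 exceeded rpS6P-/- replicate 1. Their log2 fold changes were 0.67 ± 0.19, 0.67 ± 0.20 and 0.57 ± 0.16 with adjusted p of 0.107, 0.109 and 0.109 in edgeR. In the cycle, citrate synthase (Cs, 0.45), Idh2 (0.57), the oxoglutarate dehydrogenase subunits Ogdh (0.47) and Dlst (0.52), and the 3 subunits of isocitrate dehydrogenase 3 (Idh3a 0.49, Idh3b 0.34, Idh3g 0.45) were also apart. Mdh2 (0.65), fumarase (Fh1, 0.54), Sucla2 (0.57), Suclg1 (0.29) and Suclg2 (0.18) overlapped.

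Of the linking enzymes, Got1 (chr19:43499752-43524605), the cytosolic aspartate aminotransferase of the malate-aspartate shuttle, was at 242, 279.8 and 242 CPM in wild-type and 337, 419 and 533 in rpS6P-/- heavy fractions of the Acb. Mdh1 (chr11:21556692-21571934), its partner in the cytosol, was at 799, 1076 and 814 and 1167, 1312 and 1703. Idh1 (chr1:65158616-65186479), the cytosolic NADP-dependent isocitrate dehydrogenase, was at 34.3, 39.0 and 29.5 and 44.4, 54.0 and 72.4. All 3 were apart between genotypes, with the wild-type libraries below. The log2 fold changes were 0.79 ± 0.18, 0.68 ± 0.17 and 0.77 ± 0.20, with adjusted p of 0.0983, 0.1 and 0.1 in edgeR and 0.00428, 0.0118 and 0.0124 in DESeq2. Got2, the mitochondrial aminotransferase, had 0.46 ± 0.18 and Pcx 0.17 ± 0.23, and both overlapped.

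**Figure D2:**
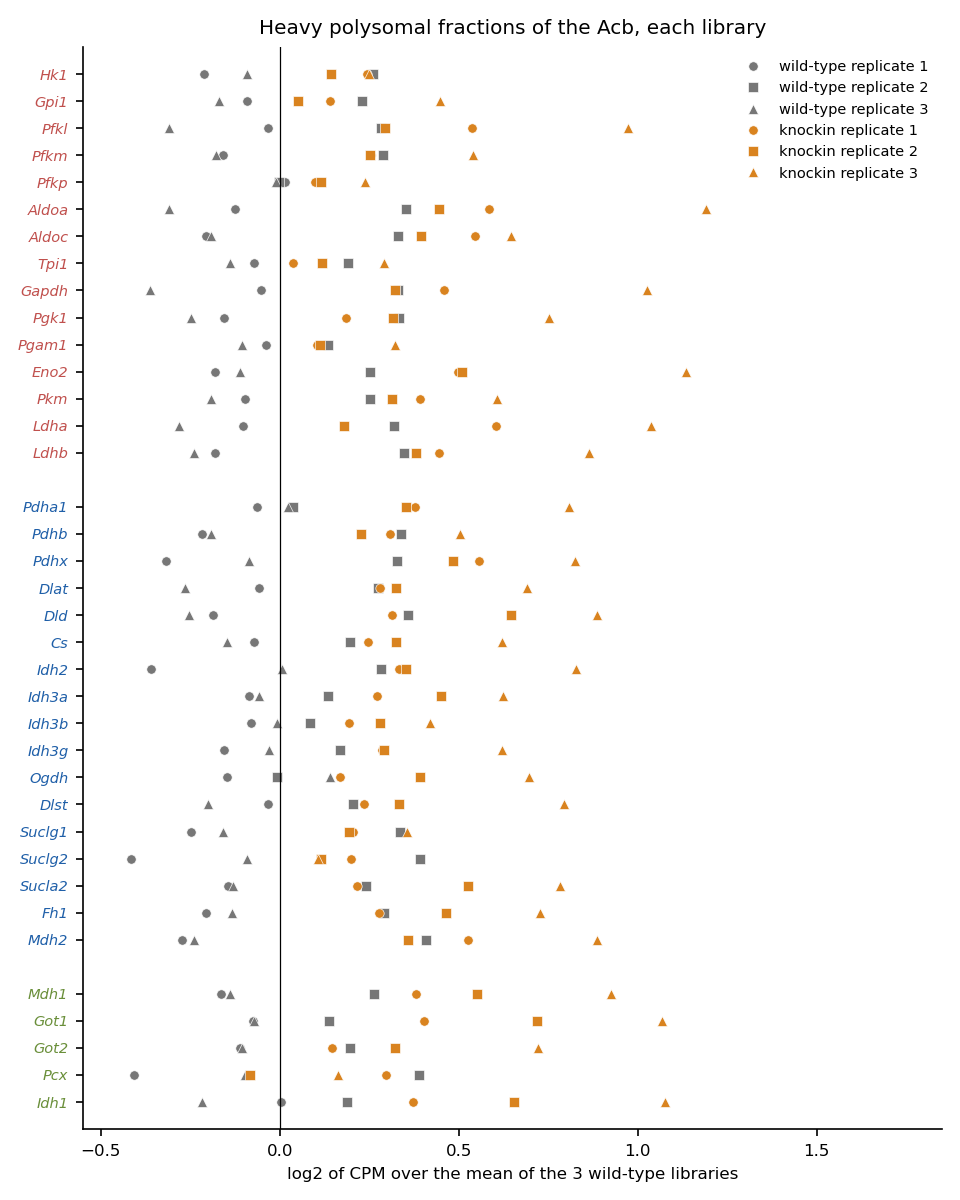
The 6 Acb libraries made from heavy polysomes, for 37 members, each as log2 of its CPM over the mean CPM of the 3 wild-type libraries (grey is wild-type, orange rpS6P-/-, the symbol gives the replicate). Wild-type replicate 2 is the highest grey point for 35 members and rpS6P-/- replicate 3 the highest orange point for 35, and 20 members have every orange point to the right of every grey one.

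The spread within groups was shared by the pathways. Wild-type replicate 2 was the highest wild-type library for 35 of 37 members and rpS6P-/- replicate 3 the highest knockin library for 35 of 37. Summed over glycolysis, the wild-type heavy fractions of the Acb held 5728, 7486 and 5385 CPM and the rpS6P-/- ones 7986, 7633 and 10588, which did not overlap. Summed over the mitochondrial genes they held 1965, 2543 and 2033 against 2685, 2800 and 3466, again apart. The ratio of the sums overlapped, with 2.65 to 2.94 in wild-type and 2.73 to 3.05 in rpS6P-/-. Without rpS6P-/- replicate 3, 18 of 37 members were higher at an unadjusted p under 0.05, where 5.23% of all genes were, and the medians were 0.38 for glycolysis and 0.33 for the mitochondrial genes. Without wild-type replicate 3, 19 were, beside 6.79% of all genes, and without wild-type replicate 2, 33, beside 12.7% of all genes. edgeR called 0 members with any library left out.

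Across all genes, the fold change in this comparison had a Spearman rho of 0.40 with coding length (15153 genes), and among the members of -0.20 (n = 37). The points share the same 6 libraries. With a trend on transcript length removed from each library, 30 of 37 members were higher at an unadjusted p under 0.05, beside 9.53% of all genes. The medians were then 0.54 for glycolysis and 0.52 for the mitochondrial genes. Oligodendrocyte markers summed to 4611 to 5891 CPM in wild-type and 4624 to 4977 in rpS6P-/- libraries, with none at 0 and a median log2 fold change of -0.49. At an unadjusted p under 0.05, 5 of 8 were lower and 1 higher, where 11.5% of all genes were lower and 10.2% higher. Astrocyte markers summed to 1519 to 2132 and 1940 to 2117, with none at 0. Their fold changes had a median of 0.28, and 6 of 8 were fitted higher. At the same unadjusted threshold 1 astrocyte marker was higher and 1 lower. Markers of medium spiny neurons were divided, 5 of 9 fitted higher and 4 lower, and their median was 0.0032. Among them, too, 1 was higher and 1 lower at that threshold. The part of these cell types in the members' values was not tested. Within a bulk sample, fewer cells of a type and less RNA per cell cannot be told apart.

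In whole lysates of the Acb the members were split, 19 with a higher and 18 with a lower fitted level in rpS6P-/- mice. edgeR called 0 of 37 members and DESeq2 0, against 0.0065% of all genes in edgeR. At an unadjusted p under 0.05, 1 member differed, where 2.96% of all genes did. The medians were 0.0032 for glycolysis, -0.01 for the mitochondrial genes and -0.0012 for the linking enzymes, beside -0.00036 for all genes. The member was Idh2 (chr7:80094845-80118608), the mitochondrial NADP-dependent isocitrate dehydrogenase, at 20.2, 24.3 and 28.8 CPM in wild-type and 15.6, 15.9 and 15.6 in rpS6P-/- lysates. All rpS6P-/- lysates were below all wild-type ones (-0.64 ± 0.26, adjusted p = 1, edgeR). In the heavy fractions of the same region it stood at 18.8, 29.3 and 24.2 and 30.4, 30.8 and 42.8, in the other direction. Summed glycolysis CPM was 7215 to 8025 in wild-type and 7563 to 7965 in rpS6P-/- lysates, and mitochondrial CPM was 2047 to 2303 and 2112 to 2295, so the genotypes overlapped for both.

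Translational efficiency, the change in heavy fractions over that in lysates, was tested with an interaction term (genotype by RNA kind) in the 12 Acb libraries, which include the 6 heavy fractions above. Without Eno1, each of 37 members had a higher fitted efficiency in rpS6P-/- mice, and 21 did at an unadjusted p under 0.05 (8 of 15 in glycolysis, 10 of 17 in the mitochondrial pathway and 3 of 5 linking enzymes), where 5.78% of all genes did. At an adjusted p under 0.05 edgeR and DESeq2 called 0, with 0% of all genes called by edgeR. The medians were 0.47 for glycolysis (0.54 with the fit of Eno1 counted), 0.52 for the mitochondrial genes and 0.68 for the linking enzymes, beside 0.012 for all genes. Without the members that share over 10% of windows, they were 0.31 for 7 glycolysis genes and 0.52 for 15 mitochondrial genes. Idh2 had 1.20 ± 0.32 (adjusted p = 0.22), Pdhx 0.93 ± 0.27 (0.238), Idh1 0.82 ± 0.27 (0.258), Aldoa 0.81 ± 0.24 (0.238) and Got1 0.72 ± 0.22 (0.241). Pfkp was lowest at 0.067 ± 0.20. Without the heavy fraction of rpS6P-/- replicate 3, 12 members were higher at an unadjusted p under 0.05, where 2.8% of all genes were. Without the heavy fraction of wild-type replicate 2 or that of rpS6P-/- replicate 1, edgeR called 1 member, beside 0.115% and 0.488% of all genes.

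In heavy fractions of the DS, 12 members had a higher and 25 a lower fitted level in rpS6P-/- mice. edgeR called 0 of 37 members, DESeq2 called 0, and edgeR called 0.044% of all genes. Only Pfkp reached an unadjusted p under 0.05, where 6.42% of all genes did. Its heavy fractions held 206, 205 and 195 CPM in wild-type and 149, 158 and 131 in rpS6P-/- mice, without overlap (-0.45 ± 0.17, adjusted p = 0.689). The medians were -0.096, -0.017 and -0.026 for glycolysis, mitochondrial and linking genes, beside 0.03 for all genes. Got1 was at 357, 362 and 293 and 363, 322 and 325 CPM, Mdh1 at 856, 1130.1 and 857 and 1133, 827 and 804, and Pdha1 at 244, 266 and 211 and 246, 203 and 222. The genotypes overlapped for these 3. Here too 1 library stood above the rest of its group for most members, wild-type replicate 2 for 32 of 37 and rpS6P-/- replicate 1 for 30 of 37.

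Whole lysates of the DS gave small differences, most of them downward. Without Eno1, 31 of 37 members had a lower fitted level in rpS6P-/- mice, 14 of 15 in glycolysis and 15 of 17 in the mitochondrial pathway, with medians of -0.098 and -0.037 beside -0.0031 for all genes. With library totals alone as the scaling, the mitochondrial median turned to 0.014 and 10 of its 17 genes were higher. edgeR and DESeq2 called 0 members, against 0.122% of all genes in edgeR, and 2 passed an unadjusted p under 0.05, where 9.07% of all genes did. These were Gapdh, at 591, 564 and 865 CPM in wild-type and 538, 529.9 and 536 in rpS6P-/- lysates, and Mdh2, at 265, 283 and 288 and 222, 224 and 256. Their log2 fold changes were -0.35 ± 0.10 (adjusted p = 0.172, edgeR) and -0.27 ± 0.10 (adjusted p = 0.343), and wild-type replicate 3 alone was far above the others for Gapdh. Summed glycolysis CPM was 8989 to 9136 in wild-type and 8581 to 8687 in rpS6P-/- lysates, without overlap, while mitochondrial CPM overlapped (2322 to 2442 and 2273 to 2390.5). Genotypes were apart and lower in 6 of 37 members (Gpi1, Aldoa, Tpi1, Gapdh, Ldha and Mdh2), where 6.31% of all genes were. The efficiency of 37 members in the DS, without Eno1, was split, 17 higher and 20 lower, with medians of -0.061 for glycolysis and 0.026 for the mitochondrial genes beside -0.0026 for all genes. edgeR called 0 members there (0% of all genes), DESeq2 0, and 1, Pfkp, passed an unadjusted p under 0.05, where 4.9% of all genes did. Without the members that share over 10% of windows, the medians of glycolysis and mitochondrial genes in Acb lysates, DS heavy fractions and DS lysates lay between -0.098 and 0.037.

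**Figure D3:**
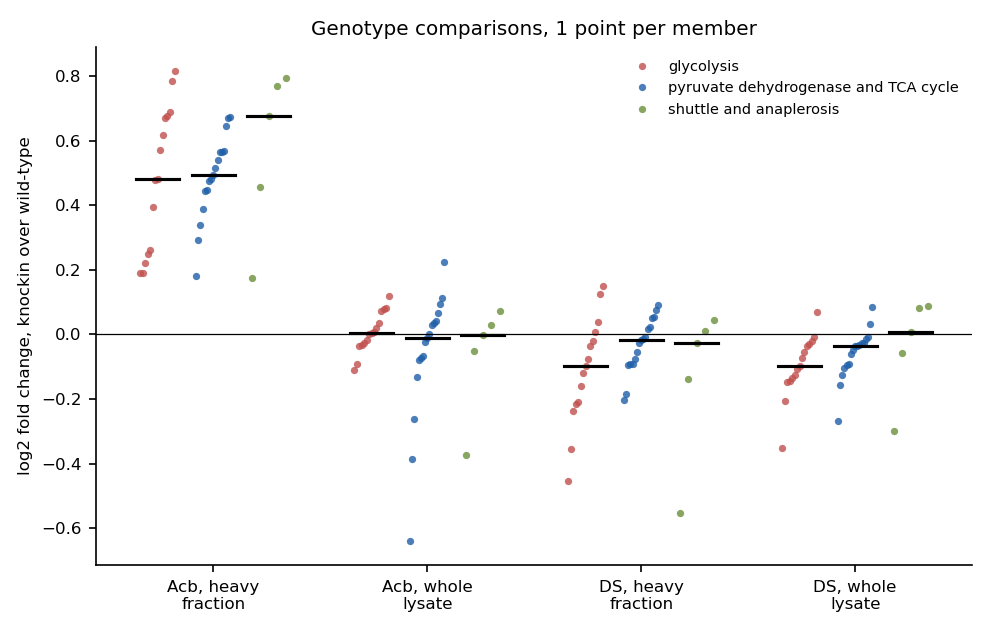
Log2 fold change of rpS6P-/- over wild-type mice for each member (points) in the 4 comparisons of genotype, by pathway, with lines at the medians of the points drawn (Eno1 is left out). In heavy fractions of the Acb every point lies above 0, with lines at 0.48, 0.49 and 0.68, while in the other 3 comparisons the lines lie close to 0.

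The difference between regions in heavy fractions was tested as the interaction of genotype and region over the 12 heavy libraries. All 37 members had a larger fitted difference in the Acb than in the DS, 22 did so at an unadjusted p under 0.05 (10 of 15, 9 of 17 and 3 of 5), where 6.33% of all genes did, and edgeR called 0, with 0.00592% of all genes called. DESeq2 called 4 higher, which were Pfkl, Pfkp, Pkm and Got1, where it called 0.486% of all genes higher. The medians were 0.65 for glycolysis, 0.51 for the mitochondrial genes and 0.74 for the linking enzymes, beside -0.03 for all genes. Pfkl had 1.04 ± 0.28 (adjusted p = 0.11, edgeR), Idh1 0.92 ± 0.29 (0.15), Mdh2 0.87 ± 0.27 (0.15), Eno2 0.84 ± 0.26 (0.15) and Got1 0.80 ± 0.24 (0.137). Without wild-type replicate 2 of the DS, 14 of 37 passed the unadjusted threshold, beside 3.51% of all genes in that direction, and over each library left out in turn 36 or 37 of 37 had a positive difference. Without wild-type replicate 2 of the Acb, edgeR called 1 member, beside 0.559% of all genes.

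Within wild-type mice, heavy fractions were compared with whole lysates to see how strongly each mRNA was represented among the most loaded. The kinases Hk1, Pkm and the phosphofructokinases were lower in heavy fractions, and 3 members were higher. In the Acb 18 of 37 members were called, where 25.9% of all genes were. Of these, 3 were higher in heavy fractions (13% of all genes) and 15 lower (12.9%), with 8 lower in glycolysis, 4 in the mitochondrial pathway and 3 among linking enzymes. In the DS 16 of 37 were called against 24.3% of all genes, 3 higher (12.8%) and 13 lower (11.5%). The 3 higher members were called in both regions, as were 13 of the lower ones, while Pgk1 and Dlst were called only in the Acb and the difference between regions was not tested for them. The medians were -0.44 for glycolysis, -0.069 for the mitochondrial genes and -0.57 for linking enzymes in the Acb, and -0.38, 0.12 and -0.45 in the DS. All genes had medians of 0.03 and 0.001. Without the members that share over 10% of windows, the medians were -0.97 for 7 glycolysis genes, -0.096 for 15 mitochondrial genes and -0.48 for 4 linking enzymes in the Acb, and -0.63, 0.052 and -0.29 in the DS.

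The members that rose in heavy fractions were Tpi1, the triose phosphate isomerase, Pgam1, a phosphoglycerate mutase, and Suclg1, the shared subunit of succinyl-CoA ligase. Tpi1 was at 813, 974 and 776 CPM in heavy fractions and 486, 517 and 561 in lysates of the Acb, and at 974, 1172 and 873 and 638, 641 and 632 in the DS. Pgam1 was at 578, 651 and 551 and 374, 417 and 434 in the Acb and at 717, 758 and 609 and 461, 469 and 431 in the DS. Suclg1 was at 133, 199 and 141 and 87.3, 102 and 94.2 in the Acb and at 141, 174 and 128 and 98.6, 112 and 94.2 in the DS. Heavy fractions and lysates did not overlap for any of them in either region. In the Acb the log2 fold changes were 0.66 ± 0.14 for Tpi1, 0.49 ± 0.13 for Pgam1 and 0.69 ± 0.16 for Suclg1 (adjusted p = 0.000585, 0.00766 and 0.00187, edgeR), and in the DS 0.66 ± 0.14, 0.61 ± 0.14 and 0.54 ± 0.16 (adjusted p = 0.000568, 0.00117 and 0.0122). The call of Pgam1 in the Acb was lost without lysate replicate 1 (0.42, adjusted p = 0.0638). That of Suclg1 in the DS was lost without lysate replicate 1 (0.52, adjusted p = 0.0606) or lysate replicate 3 (0.49, adjusted p = 0.0764).

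Pcx, Hk1, Pkm, Pfkl and Pfkm had the largest falls in the Acb, and Hk1, Pcx, Pfkm and Pkm in the DS. Pcx, the anaplerotic carboxylase, was at 10.4, 18.1 and 12.9 CPM in heavy fractions and 34.7, 44.4 and 38.3 in lysates of the Acb, and at 20.98, 15.7 and 11.4 and 31.3, 39.8 and 40.1 in the DS. Hk1 was at 67.9, 94.0 and 73.8 and 177, 195 and 209 in the Acb and at 101, 124 and 107 and 260.0, 264 and 252 in the DS. Pkm was at 500.5, 638 and 469 and 1113, 1194 and 1167 in the Acb and at 652, 688 and 633 and 1331, 1293 and 1253 in the DS. None of these overlapped between heavy fractions and lysates, and of all members called in the Acb only Pgk1 did. The log2 fold changes in the Acb were -1.56 ± 0.22 for Pcx, -1.36 ± 0.15 for Hk1, -1.16 ± 0.14 for Pkm and -1.01 ± 0.15 for Pfkm, and in the DS -1.22 ± 0.24, -1.23 ± 0.15, -0.98 ± 0.13 and -1.11 ± 0.15, each with an adjusted p of at most 0.000259 in edgeR. Of the other lower members in both regions, Pfkl, Pfkp, Gpi1, Eno2, Ogdh, Got1, Got2, Cs and Dld, the largest was Pfkl in the Acb (-1.06) and the smallest Got1 in the DS (-0.45).

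**Figure D4:**
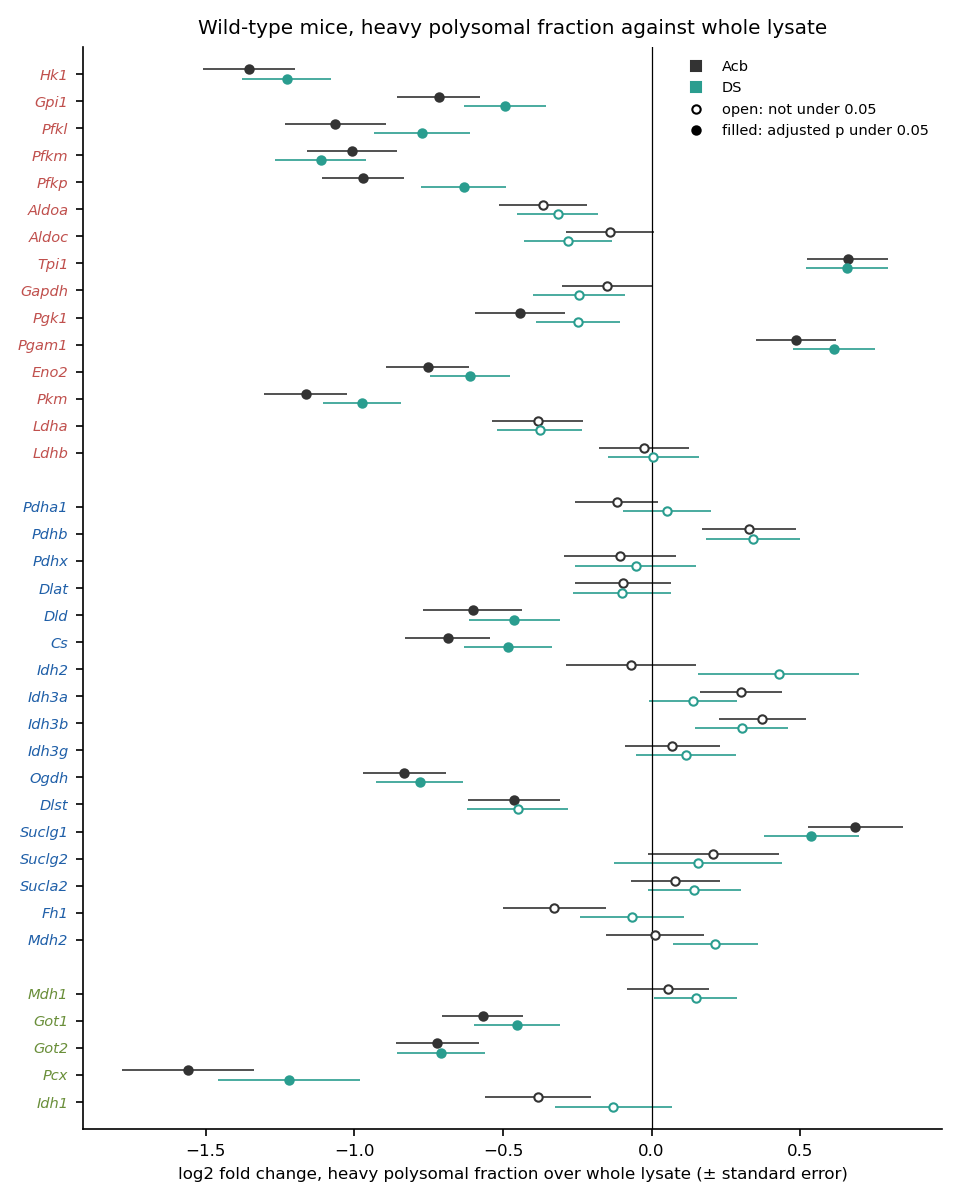
Log2 fold change of heavy polysomal fractions over whole lysates in wild-type mice for 37 members (points with standard errors, grey is the Acb, green the DS, filled where the adjusted p was under 0.05; red, blue and green names mark glycolysis, mitochondrial and linking genes). Tpi1, Pgam1 and Suclg1 lie to the right of 0 in both regions, and Hk1 and Pcx farthest to the left, at -1.36 and -1.56 in the Acb.

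Calls lost when 1 library was left out were those of Dld in the Acb without lysate replicate 2 (-0.50, adjusted p = 0.0636), of Dlst without heavy replicate 1 or 3 or lysate replicate 2 or 3 (-0.45 to -0.37, adjusted p 0.0657 to 0.153) and of Pgk1 without any 1 library but heavy replicate 2 (-0.51 to -0.33, adjusted p 0.0527 to 0.165). In the DS they were those of Cs without heavy replicate 3 or lysate replicate 1 or 2 (-0.50 to -0.40, adjusted p 0.0542 to 0.0823), of Dld without heavy replicate 3 or any lysate (-0.48 to -0.39, adjusted p 0.0685 to 0.110) and of Got1 without heavy replicate 3 or lysate replicate 1 (-0.36 and -0.35, adjusted p 0.110 and 0.172). With each library left out in turn, 14 of 18 calls in the Acb and 12 of 16 in the DS held throughout.

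The fold change of heavy fractions over lysates was lower for longer mRNAs. Spearman's rho of the fold change with coding length was -0.76 in the Acb and -0.74 in the DS over 37 members, and -0.46 (14992 genes) and -0.50 (14621 genes) over all genes. The members share the same libraries, so these are descriptions. The median coding length was 1278 bases for glycolysis and 1356 for the mitochondrial genes, and Pcx (3537), Ogdh (3102) and Hk1 (2835) were the longest. With a trend on transcript length removed from each library, the calls of Tpi1 (0.32 in the Acb, 0.35 in the DS), Pgam1 (0.19 and 0.36) and Suclg1 (0.33 and 0.21) were lost. The medians were then -0.73 and -0.62 for glycolysis and -0.25 and -0.0039 for the mitochondrial genes, the last of which was above 0 before. With library totals alone as the scaling, the median of all genes moved to 0.27 in the Acb and 0.19 in the DS and the calls of all genes split 3646 higher to 1170 lower and 2976 to 1110, instead of 2092 to 2066 and 1994 to 1803. Under that scaling, and so to be read against those shifts, the medians were -0.20 and -0.19 for glycolysis and 0.18 and 0.30 for the mitochondrial genes. The ratio of summed glycolysis to mitochondrial CPM gives the contrast within a library and does not depend on how libraries are scaled. It was 2.65 to 2.94 in heavy fractions and 3.38 to 3.52 in lysates of wild-type Acb, and 3.10 to 3.24 and 3.74 to 3.93 in wild-type DS. In rpS6P-/- mice it was 2.73 to 3.05 and 3.42 to 3.58 in the Acb and 3.02 to 3.20 and 3.61 to 3.82 in the DS, so heavy fractions and lysates were apart in all 4 sets and the genotypes overlapped within each kind of RNA.

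The comparison of regions used the same wild-type libraries. In whole lysates 6 glycolysis genes were lower in the Acb than in the DS and 1, Aldoc, was higher. Of 37 members 10 were called, where 12.7% of all genes were, 3 higher in the Acb (6.54% of all genes) and 7 lower (6.15%), and 6 of those 7 were glycolysis genes. The medians were -0.25 for glycolysis, -0.075 for the mitochondrial genes and -0.011 for linking enzymes, beside 0.0057 for all genes. Idh2 was at 20.2, 24.3 and 28.8 CPM in the Acb and 11.4, 12.7 and 14.0 in the DS, and Suclg2 and Aldoc have their values above. The higher members Idh2 (0.97 ± 0.25, adjusted p = 0.00471), Suclg2 (0.94 ± 0.24, adjusted p = 0.00533) and Aldoc (0.32 ± 0.11, adjusted p = 0.0355) did not overlap between regions (edgeR). The lower members Pfkp (-0.68 ± 0.12, adjusted p = 2.60e-05), Ldha (-0.49 ± 0.11, adjusted p = 0.00145) and Pfkl (-0.44 ± 0.13, adjusted p = 0.0197) were apart as well. Aldoa (-0.42), Hk1 (-0.39), Gapdh (-0.35) and Got2 (-0.33) completed the 10.

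Only Aldoa, Idh2, Ldha and Pfkp were called with each library left out in turn. Suclg2 was lost without Acb replicate 2 (0.77, adjusted p = 0.0693), and Aldoc without Acb replicate 2 or DS replicate 1 or 2 (0.28 to 0.30, adjusted p 0.120 to 0.195). Gapdh was lost without Acb replicate 1 or 2 (-0.29 and -0.36, adjusted p 0.221 and 0.148) or DS replicate 3 (-0.12, adjusted p = 0.623). Pfkl was lost without Acb replicate 1 or 2 or DS replicate 2 or 3 (-0.42 to -0.37, adjusted p 0.0612 to 0.134), and Hk1 without Acb or DS replicate 1 or 2 (-0.39 to -0.33, adjusted p 0.0548 to 0.0964). Got2 was lost without any 1 library but DS replicate 3 (-0.35 to -0.29, adjusted p 0.0525 to 0.158).

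In heavy fractions of wild-type mice 3 of 37 members were called between regions, where 8.15% of all genes were. Suclg2 was higher in the Acb (4.72% of all genes were called higher), with 1.03 ± 0.26 (adjusted p = 0.0184, edgeR), and Pfkp (-0.99 ± 0.15, adjusted p = 0.000356) and Pfkl (-0.69 ± 0.19, adjusted p = 0.0285) were lower (3.43%). The medians were -0.29 for glycolysis and -0.12 for the mitochondrial genes beside 0.031 for all genes. Pfkp alone was called with each library left out. Suclg2 was lost without Acb replicate 2 (0.79, adjusted p = 0.131) or 3 (1.07, adjusted p = 0.0514) or DS replicate 3 (0.80, adjusted p = 0.103), and Pfkl without Acb replicate 1 or 3 or DS replicate 1 or 2 (-0.68 to -0.56, adjusted p 0.0530 to 0.181). All genes moved to a median of 0.13 with library totals alone (990 higher and 403 lower calls, instead of 762 and 554) and of -0.14 with the length trend removed (527 and 1090).

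The regions also differed in markers of other cells, whose part in these values was not tested. Cortical excitatory neuron markers summed to 741 to 965 CPM in wild-type DS lysates and 72.8 to 153.1 in wild-type Acb lysates, with 6 of 6 called lower in the Acb and a median log2 fold change of -3.90. Astrocyte markers, to which Aldoc is related, summed to 1365 to 1417 in the DS and 1953 to 2436 in the Acb, with 8 of 8 fitted higher and 6 called. Microglia markers summed to 105.1 to 130.3 and 192.8 to 227, with 7 of 7 fitted higher and 6 called, and oligodendrocyte markers to 2771 to 3457 and 3588 to 4167, with 7 of 8 fitted higher and 4 called. None of these 4 lists had a gene at 0 in these lysates.

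**Figure D5:**
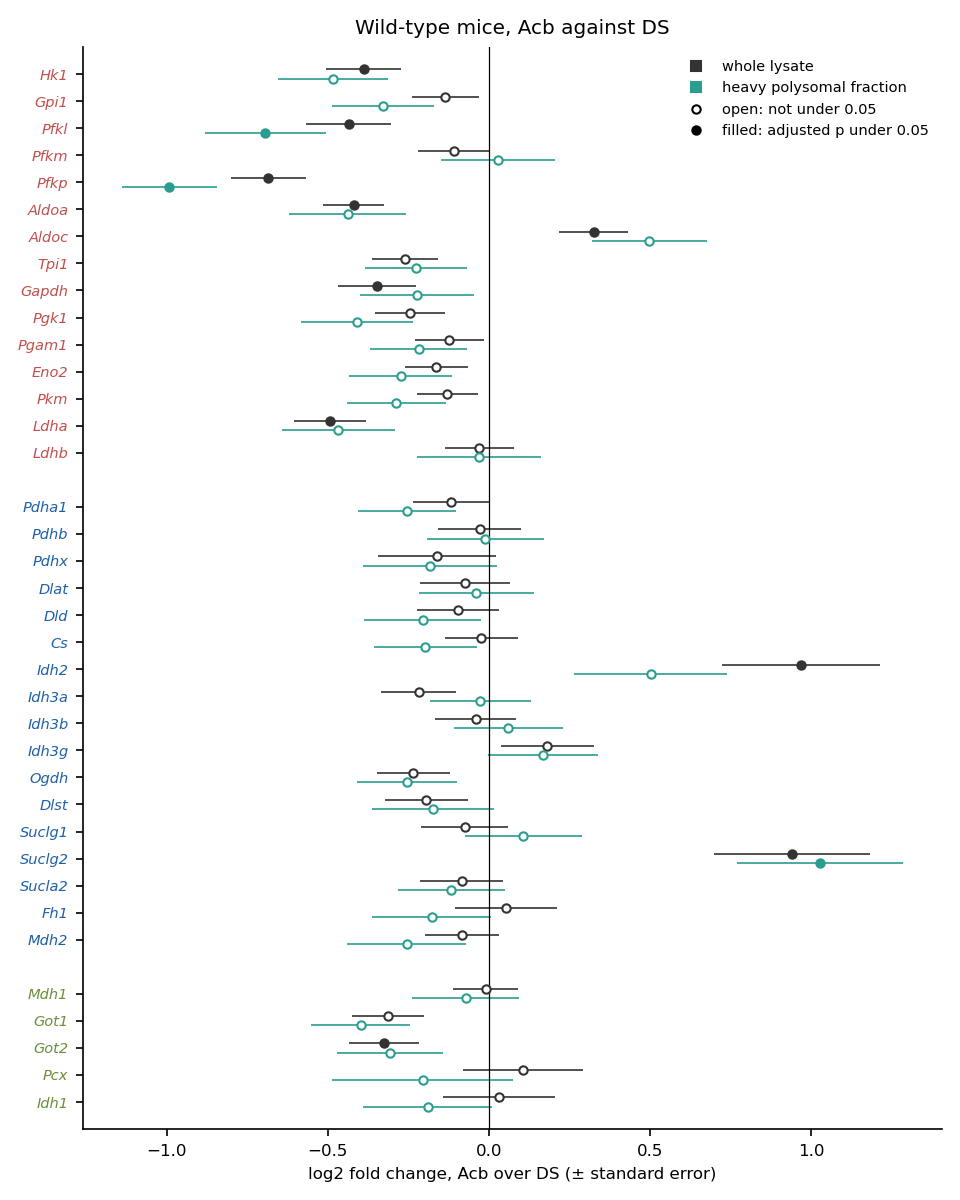
Log2 fold change of the Acb over the DS in wild-type mice for 37 members (points with standard errors, grey for whole lysates, green for heavy polysomal fractions, filled where the adjusted p was under 0.05; red, blue and green names mark glycolysis, mitochondrial and linking genes). Pfkp lies far to the left in both kinds of RNA (-0.68 and -0.99) and Suclg2 far to the right (0.94 and 1.03).

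Further genes of these pathways were mixed in heavy fractions of the Acb, where edgeR called 0 in every list. Of 7 other TCA cycle genes 4 had a higher fitted level in rpS6P-/- mice, and the subunits of succinate dehydrogenase were divided. Sdha, the catalytic flavoprotein, was at 218, 277 and 242 CPM in wild-type and 282, 319 and 393 in rpS6P-/- libraries. Sdhc and Sdhd, the membrane anchors, were at 258, 212 and 304 against 163, 200.4 and 118 and at 216, 189 and 273 against 158, 171 and 101. The iron-sulphur subunit Sdhb was at 225, 276 and 227 against 196, 214 and 177. The genotypes did not overlap for any of the 4, which were picked after their values were seen. Of all 16227 genes tested, 1837 were apart and higher in rpS6P-/- and 2217 apart and lower. Sdha was higher in rpS6P-/- (0.47 ± 0.17, adjusted p = 0.138, edgeR). Sdhb (-0.28 ± 0.16, adjusted p = 0.313), Sdhc (-0.65 ± 0.19, adjusted p = 0.111) and Sdhd (-0.62 ± 0.20, adjusted p = 0.119) were lower. Mpc1, a subunit of the mitochondrial pyruvate carrier, was at 232, 164 and 171 against 145, 137 and 71.6 CPM (-0.65 ± 0.22, adjusted p = 0.133), again apart. Of the other lists, 8 of 12 other glycolysis enzymes tested had a higher fitted level (median 0.23), as did 3 of 5 glycolysis regulators, 3 of 8 transporters of glucose, pyruvate and lactate (median -0.18), 3 of 7 regulators of pyruvate dehydrogenase and 10 of 12 shuttle and anaplerotic genes (median 0.23). At an unadjusted p under 0.05, where 10.2% of all genes were higher and 11.5% lower, the lists held in that order 3 higher and 1 lower of 12, 1 higher of 5, 2 lower of 8, 0 of 7 and 2 higher of 12 genes. Of the 7 other TCA cycle genes, 1 was higher and 2 were lower at that threshold.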

How the data were processed

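Poly(A) RNA from whole lysates and heavy polysomal fractions was sequenced in 24 libraries, 3 per region, genotype and kind of RNA. Per the study's methods and the labels, the authors aligned 50-base single-end reads to mm10 with TopHat 2.0.13 and Bowtie 2.2.3, and the deposited counts are whole reads per gene from HTSeq 0.6.1p1 (union mode, opposite strand), not normalized. The library totals, 9280589 to 34703044 reads, limit the precision of low genes.

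Here genes with at least 15 reads over the libraries compared were tested with edgeR 4.0.16 (quasi-likelihood, TMM, Benjamini-Hochberg over all genes tested, adjusted p under 0.05) in R 4.3.3. DESeq2 1.42.0 and other scalings, filters and fits, the replicate number as a block and each library left out were alternatives. The code was tested on simulated data. Lengths, positions and shared 50-base windows came from GENCODE M21 (GRCm38), and the length trend was a loess curve with span 0.5. The members and lists were chosen with earlier results of these data known. Named were, for each pathway, the 3 smallest p-values in heavy fractions of the Acb, the isoform sets, and the called members with the largest changes (up to 3 each way) in the comparisons of RNA kinds and regions. Sdh subunits and Mpc1, and the further members named beside these, were chosen after their values were seen.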

Additional observations from a re-analysis of the deposited data

Results flagged for a closer look

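Pfkp was flagged because every rpS6P-/- library differed from the wild-type libraries in opposite directions in the 2 regions. In heavy fractions of the Acb it was at 102, 101 and 100.2 CPM in wild-type and 108, 109 and 119 in rpS6P-/- mice, and in the DS at 206, 205 and 195 and 149, 158 and 131. The difference of the fold changes was 0.66 on the log2 scale, with an adjusted p of 0.16 in edgeR and 0.0304 in DESeq2.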

How the results depend on the processing

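No result changed sign while called. Called members in heavy fractions of the Acb numbered 0 in edgeR, 12 with no filter beyond 1 read, 18 with DESeq2 and 17 with all libraries in 1 fit, where all genes gave 0, 549, 1090 and 750. DS lysates had 1 with no filter (0.384% of all genes). The efficiency in the Acb had 2 with no filter (0.588% of all genes), and 0 to 1 with a library left out (0% to 0.488%). The interaction with region had 1 with no filter (1.93% of all genes), 4 with DESeq2 (1.4%) and 7 with all libraries (2.43%). With a library left out it had 0 to 1 (0% to 1.09%). Regions differed in lysates for 6 members with library totals alone (11.4% of all genes) and 5 with all libraries (10.3%). With a library left out it was 4 to 9 (8.64% to 11.2%). In heavy fractions they differed for 5 with DESeq2 (10.8%), 5 with the length trend removed (10.6%) and 7 with all libraries (10.6%). There it was 1 to 3 with a library left out (4.18% to 8.68%). The glycolysis median in DS lysates was -0.037 with library totals or the length trend and -0.11 to -0.063 with a library left out, and the mitochondrial one 0.014 with library totals. In the Acb the glycolysis median of the efficiency was 0.33 to 0.71 with a library left out, lowest without the heavy fraction of rpS6P-/- replicate 3. These medians of DS lysates and of the efficiency count Eno1 where it passed the filter. For heavy fractions over lysates, library totals gave -0.20 (Acb) and -0.19 (DS) for glycolysis and 0.18 and 0.30 for mitochondrial genes, and the length trend -0.73 and -0.62 for glycolysis, with -0.65 to -0.33 in the Acb with a library left out. Between lysates of the regions, library totals gave -0.17 for glycolysis and -1.53e-05 for mitochondrial genes. The causes were not tested.

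Replicate numbers were not shown to pair the samples. Correlations of same-numbered libraries' deviations ran from -0.294 to 0.319 between genotypes, with 2 of 12 pairs above 0.1. Between heavy fractions and lysates they ran from -0.038 to 0.074, with 0 of 12 pairs above 0.1. Per the study's methods, part of each sample was kept as input before the gradient, so heavy fractions and lysates can come from the same mice. The main fits of the efficiency and of heavy fractions over lysates did not pair them. With the replicate block, 0 members were called in heavy fractions of the Acb (0.604% of all genes), 2 for the efficiency in the Acb (0.635%), 4 for the interaction with region (2.84%) and 9 between regions in heavy fractions (13.9%). With the block and the length trend removed these last 3 were 5 (0.692%), 6 (1.82%) and 13 (16.6%), and the medians were -0.037 for glycolysis in DS lysates, and, for heavy fractions over lysates, -0.75 and -0.63 for glycolysis and -0.28 and -0.033 for mitochondrial genes in the Acb and DS.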
